A study of Mus musculus with 15 samples.

Results

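The comparison was between the CD11c-positive and the CD11c-negative macrophages sorted from the same kind of diseased liver, 5 arrays of each, which are 10 of the 15 arrays of the series. They were chosen by their titles, not by any measured value. The livers came from male MC4R-KO mice, which lack the melanocortin 4 receptor, given Western diet for 20 weeks from 8 weeks of age; their state is labelled NASH (non-alcoholic steatohepatitis). Both populations carried the receptor deletion and the diet. The other 5 arrays held CD11c-negative macrophages of male wildtype mice on standard diet. They entered through the filter on probes, the choice of each gene's brightest probe and the estimate of the spread. Their levels are also set beside the NASH values. Livers were digested with collagenases, cells with high surface levels of the macrophage receptor encoded by Adgre1 were sorted by CD11c, and 7 to 9 mice gave the pooled RNA of a sample. The labels do not say whether the 5 arrays of a group came from separate pools, so each p-value below measures the spread between these arrays, which may be technical. A whole-body knockout gives no control for the diet or for obesity, and no CD11c-positive cells of wildtype mice were among the samples.

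Kupffer cells are the resident macrophages of the liver sinusoid, where they clear particles, bacteria, dying cells and haemoglobin from the blood. When they are lost in steatohepatitis, monocytes from the blood enter and take on macrophage functions, and lipid-laden macrophages gather around dying fat-filled hepatocytes. CD11c, the integrin alpha chain encoded by Itgax, pairs with the beta chain Itgb2 and binds complement fragments and adhesion molecules; it is carried by dendritic cells and by macrophages of inflamed fat and liver. The receptor encoded by Adgre1 belongs to the adhesion G protein-coupled receptors and marks mouse macrophages, although some dendritic cells, eosinophils and monocytes also carry it. MC4R acts in the brain to restrain feeding, and mice without it become obese.

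Levels are given on the log2 scale as the processed signal of a gene's brightest probe minus the 75th percentile of the array, so that 0 marks a signal equal to that percentile, and a difference of 1 is 2-fold. A gene passed when its Benjamini-Hochberg adjusted p from limma was under 0.05 over 13390 genes. The background of calls was high: 53.1% of the genes passed, 29.9% higher and 23.2% lower in CD11c-positive cells, with a median difference of 0.015 over all genes and a median standard error of 0.051. Every count of list or family members below is to be set against these shares of 29.9% higher and 23.2% lower. Differences were mostly small. Only 2.85% of the genes passed with at least a 2-fold difference (1.66% higher, 1.19% lower), and 62 were at least 4-fold higher against 18 at least 4-fold lower. Part of this excess lies in genes not measurable in CD11c-negative cells. Among genes well above background on all 10 NASH arrays, 110 passed as at least 2-fold higher and 98 as at least 2-fold lower. The arrays of the populations did not overlap for 39.5% of the genes. The first principal component of the 10 NASH arrays held 59.5% of the variance and separated the populations, and the second held 12.6% and separated the slides. The 75th percentile itself was a signal of 359 to 404 on the CD11c-negative arrays and of 478 to 562 on the CD11c-positive arrays, without overlap. Bright genes shared a shift. Of the 652 genes with a mean level of 6 or more, 70.2% were lower in CD11c-positive cells (median -0.12), against 45.5% (median 0.017) after quantile normalization. Several falls of bright genes are therefore given below under both scalings. A fall given once is under the 75th percentile scaling and may differ in size under the other.

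**Figure D1:**
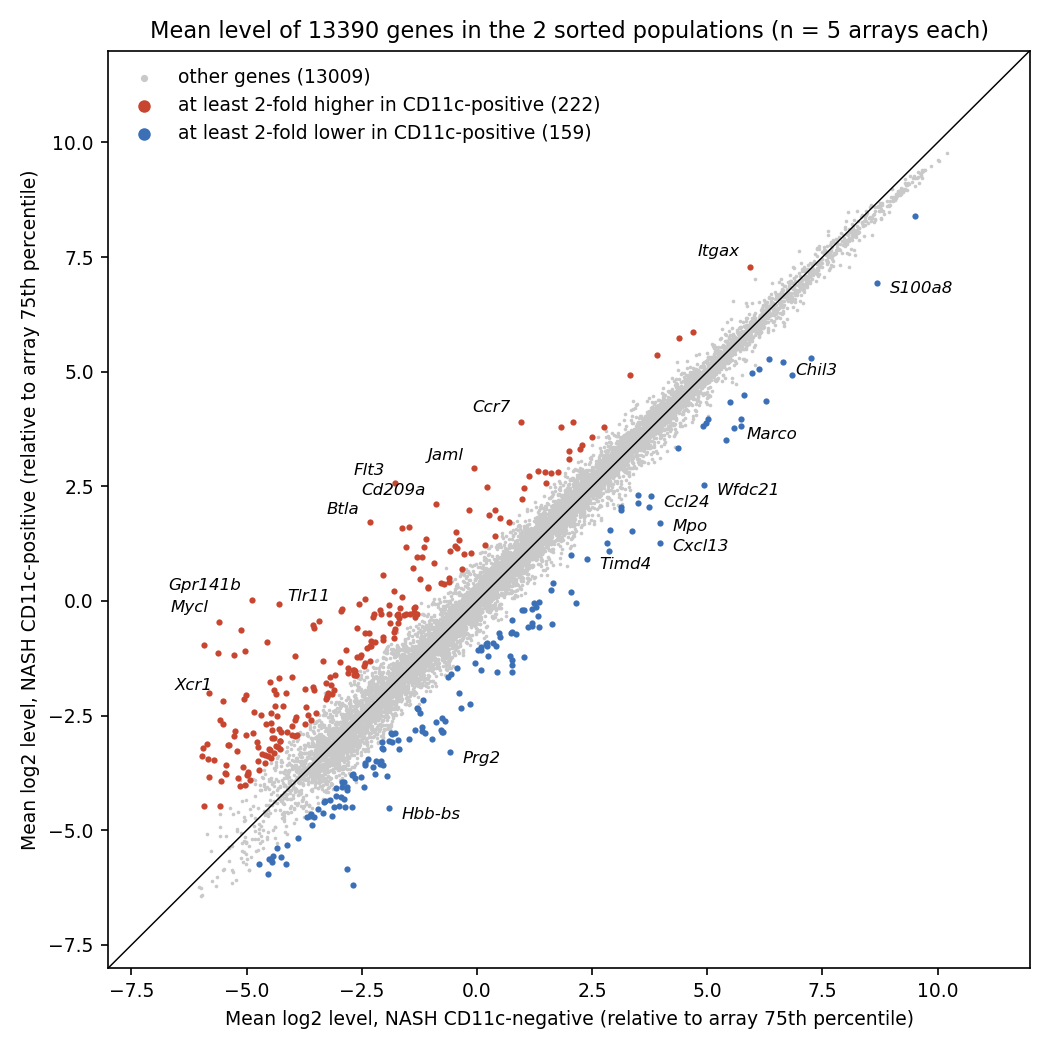
Mean log2 level of each of 13390 genes on the CD11c-negative arrays (horizontal axis) and on the CD11c-positive arrays (vertical axis), each relative to the array's 75th percentile, with the line of equality. Red points are the 222 genes at least 2-fold higher and blue points the 159 genes at least 2-fold lower that passed; the higher ones reach to the lowest levels at the left, and the brightest genes at the upper right lie just under the line.

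Both sorting markers moved, Itgax up and Adgre1 down. Itgax stood at 5.91, 5.90, 5.85, 6.04 and 5.96 on the CD11c-negative arrays and at 7.27, 7.27, 7.32, 7.33 and 7.27 on the CD11c-positive arrays. Every CD11c-positive array was above every CD11c-negative one, and the difference of 1.36 (SE 0.033, adjusted p = 1.87e-13) was 2.56-fold. The CD11c-negative cells of the NASH livers were themselves well above the wildtype mean of 4.21, so Itgax RNA was well above background in both populations. Itgb2, the partner chain, rose by 0.52 (SE 0.045). Adgre1 fell by 0.43 on the log2 scale, with arrays at 7.66 to 7.82 and at 7.28 to 7.34; it is a bright gene, and its difference was -0.31 after quantile normalization. The 1 probe of Mc4r was not well above background on any array, wildtype included, and checks nothing about the deletion. Of the 15 measured genes among the sorting markers and general macrophage genes, 4 rose and 9 fell, where 29.9% and 23.2% of all genes tested did, with a median of -0.21 (-0.074 after quantile normalization). Mertk, a receptor for dying cells, rose by 0.46. Csf1r, the receptor for macrophage colony-stimulating factor, was at 9.34 in CD11c-negative and 8.97 in CD11c-positive cells, a difference of -0.38 that was -0.099 after quantile normalization. Both genes were well above background on all arrays of both populations.

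Among genes well above background on all 10 NASH arrays, the 10 largest rises included the dendritic cell genes Flt3, Cd209a and Ccr7. Conventional dendritic cells take up antigen, carry it to lymph nodes and present it to T cells; they depend on the cytokine Flt3 ligand and fall into a cross-presenting type (cDC1) and a second type (cDC2). Flt3, the receptor for that ligand, was at -1.82, -1.79, -1.96, -1.71 and -1.63 on the CD11c-negative arrays and at 2.49, 2.53, 2.59, 2.66 and 2.59 on the CD11c-positive arrays. The groups lay far apart with no overlap, and the difference of 4.35 (SE 0.054, adjusted p = 2.82e-16) was 20.4-fold. The wildtype cells, although CD11c-negative, lay between them at 1.36 ± 0.053 (SD, n = 5). Btla, an inhibitory receptor of lymphocytes and dendritic cells, followed the same order, with means of -2.33 in NASH CD11c-negative, 0.95 in wildtype and 1.73 in NASH CD11c-positive cells. Cd209a, a sugar-binding receptor of dendritic cells (DC-SIGN in its human form), was at -1.01 to -0.71 and at 2.08 to 2.21, a difference of 3.00 (SE 0.051). In bulk samples such as these, more cells of a type and more RNA per cell cannot be told apart.

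Further dendritic cell genes lay under the measurable range of the CD11c-negative arrays. The transcription factor Mycl, which dendritic cells use in place of its relative Myc, was not well above background on any CD11c-negative array and was so on all 5 CD11c-positive arrays. Its level of -0.47 there gave at least a 10.6-fold rise over the lowest measurable signal (measured means -5.60 and -0.47, adjusted p = 4.88e-13). Xcr1, the chemokine receptor that marks cDC1, was in the same state and at least 3.24-fold higher (measured means -5.51 and -2.17, adjusted p = 1.22e-07). Each fold given as "at least", here and below, holds for this processing only. Over the alternative processings run, the smallest log2 difference was 1.90 for Mycl and 0.84 for Xcr1. It was 0.87 for Ccl22 and 2.41 for Gpr141b, both described below. All but 1 of the 11 measured cDC1 genes rose and none fell, and the median difference was 0.72. Clec9a, a receptor for dead cells, rose by 1.26 (SE 0.028), the lipid amidase Naaa by 1.63 (SE 0.040) and the sorting nexin Snx22 by 1.79 (SE 0.061). The transcription factor Irf8 rose by only 0.22, and Batf3, which cDC1 need for their development, did not pass (0.024). Of 14 measured genes shared by conventional dendritic cells or typical of cDC2, 12 rose and none fell (median 0.63). Irf4, a transcription factor of these cells, rose by 0.60 (SE 0.062). For Zbtb46, another, the brighter of 2 probes gave 0.56 (SE 0.067) and the mean of both 1.47. Kmo, an enzyme of tryptophan breakdown, rose by 2.46 (SE 0.046). The summed signal of the cDC1 genes, in units of the array's 75th percentile, was 177 to 198 in CD11c-negative and 268 to 282 in CD11c-positive cells, against 173 to 189 in wildtype cells. The sums of the shared and cDC2 genes overlapped between the populations (159 to 177 and 168 to 195). These sums and those below add linear signals, so bright genes weigh most, and were taken under the 75th percentile scaling only. Of plasmacytoid dendritic cell genes, 3 of 10 rose and 5 fell; Spib rose by 1.37 and Irf7 fell by 0.37 on the log2 scale, while the defining marker Siglech did not pass (-0.10).

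Mature dendritic cells switch on Ccr7, the receptor that guides them along Ccl19 and Ccl21 to lymph nodes, and secrete Ccl17 and Ccl22, the ligands of Ccr4. Ccr7 was at 0.88, 1.09, 0.89, 0.92 and 1.01 on the CD11c-negative arrays and at 3.91, 3.81, 4.02, 3.95 and 3.84 on the CD11c-positive arrays. All 5 positive arrays were higher, by 2.95 (SE 0.046, adjusted p = 3.94e-15), and the wildtype mean of 2.46 was between the populations. The wildtype mean also lay between them for Flt3, Btla, Cd209a, Mycl and Xcr1. It was above both for Ccl17 (0.71), Irf4 (0.71) and Spib (0.89), so this order was not general. Ccl22 was not well above background on any CD11c-negative array and was so on all 5 CD11c-positive ones, at least 3.50-fold higher (measured means -5.003 and -2.05, adjusted p = 3.30e-07). Ccl17 rose by 2.48 (SE 0.20, adjusted p = 1.12e-07); CD11c-negative replicate 2 was at -1.56, apart from the other CD11c-negative arrays, whose highest was -2.68. Of the 14 measured genes of mature dendritic cells, 9 rose and 3 fell, with a median of 0.50 (0.17 over the members well above background on all 10 NASH arrays). Their summed signal was lower in CD11c-positive (259 to 262) than in CD11c-negative cells (268 to 283), a small gap that was not checked after quantile normalization. The 3 that fell were Cd83, Samsn1 and Marcksl1, at -0.26, -0.30 and -0.80. Among 14 costimulatory and checkpoint molecules, 5 rose and 4 fell, shares near those of all genes tested (29.9% and 23.2%). The inhibitory ligands Cd200 and Pdcd1lg2 rose by 0.89 (SE 0.12) and 0.78 (SE 0.12), and Cd86, the ligand of Cd28, fell by 0.38 on the log2 scale.

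**Figure D2:**
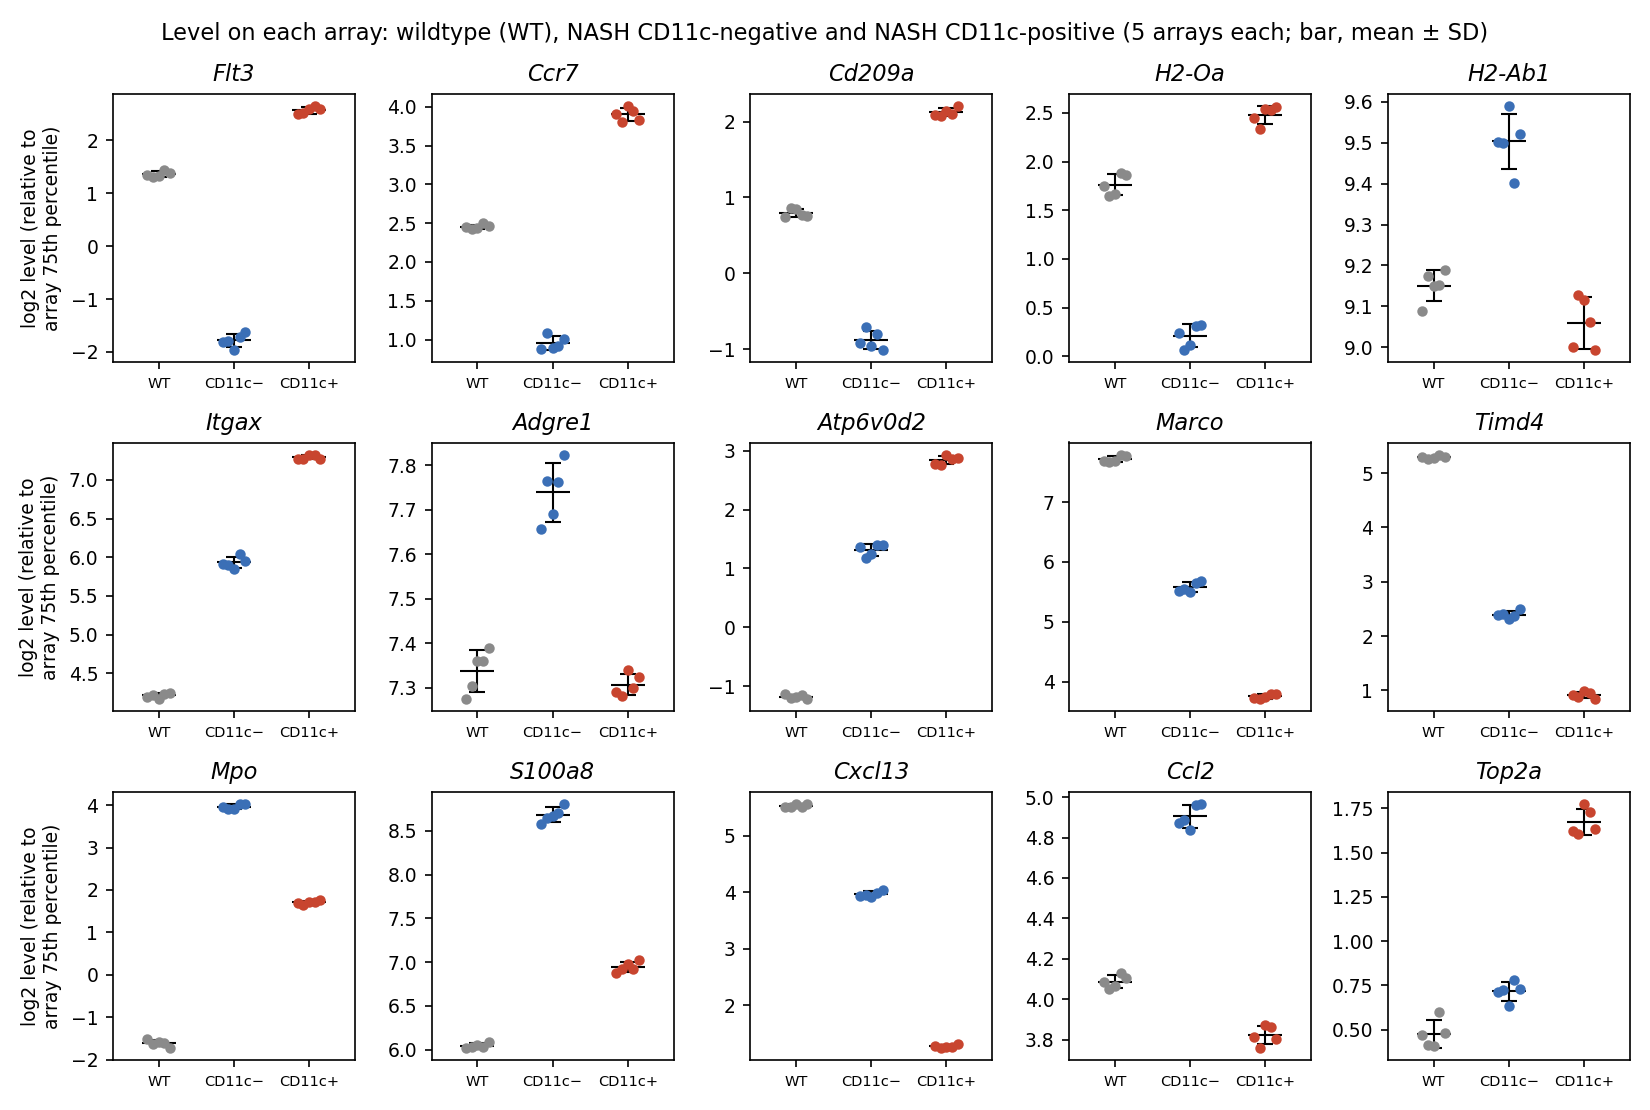
Log2 level relative to the array's 75th percentile (vertical axis, its own range in each panel) on the 5 wildtype (WT), 5 NASH CD11c-negative and 5 NASH CD11c-positive arrays for 15 genes, with bars for the mean and SD. In all 15 panels the CD11c-negative and CD11c-positive arrays do not overlap (the axes do not start at 0). For Flt3, Ccr7, Cd209a, H2-Oa and Ccl2 the wildtype arrays lie between them, and for Marco, Timd4 and Cxcl13 above both.

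Genes of class II antigen presentation moved in different directions. Class II molecules are built from an alpha and a beta chain, are filled with peptides by the editor H2-DM, and are held back in that step by H2-O (H2-Oa with H2-Ob), which B cells and some dendritic cells make. Of the 14 measured, 5 rose and 4 fell, shares near those of all genes tested (29.9% and 23.2%). After quantile normalization 9 rose and 1 fell. The median was 0.063, and -0.053 on slide 2 alone. H2-Oa was at 0.25, 0.067, 0.12, 0.31 and 0.33 on the CD11c-negative arrays and at 2.44, 2.34, 2.54, 2.53 and 2.56 on the CD11c-positive arrays. The difference of 2.27 (SE 0.064, adjusted p = 1.21e-12) was 4.82-fold with no overlap. H2-Ob rose by 1.72 (SE 0.042), H2-DMb2, a beta chain of the editor, by 1.34 (SE 0.056), and H2-Eb2, a rarely used class II beta chain, by 2.48 (SE 0.17). The abundant classical chains did not follow. H2-Ab1 was at 9.50, 9.50, 9.59, 9.40 and 9.52 against 9.00, 9.13, 9.12, 9.06 and 8.99, a difference of -0.44 that was -0.12 after quantile normalization. H2-Eb1 was at -0.42 and H2-Aa at -0.077. After quantile normalization these were 0.014 (did not pass) and 0.10 (passed as higher, adjusted p = 0.000479), so that their direction depends on the scaling. The call of H2-Aa as lower was also lost when any of 7 arrays was left out. Cd74, the invariant chain, differed by -0.077 (did not pass). It passed as higher after quantile normalization (0.25, adjusted p = 3.06e-05) and as lower with the slide as a block (-0.11, adjusted p = 0.00114). Under both scalings, the 4 chains that rose did so by more than any classical chain changed. Ciita, the master inducer of class II genes, did not pass (0.20); CD11c-positive replicate 4 was low at 1.27, and without it the difference was 0.45 and passed.

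The promoters of these genes are shown because members with the same short element moved differently. Each line gives the 150 bases before the RefSeq start on mouse build GRCm38.p6, from 5′ to 3′ on the gene's strand, for 4 genes that rose (H2-Oa, H2-Ob, H2-DMb2, H2-Eb2) and 2 classical chains that did not (H2-Eb1, H2-Aa); capitals mark the CCAAT box, GATTGG or its reverse, which class II genes carry near their start.
H2-Oa (chr17:34092229-34092378, plus strand): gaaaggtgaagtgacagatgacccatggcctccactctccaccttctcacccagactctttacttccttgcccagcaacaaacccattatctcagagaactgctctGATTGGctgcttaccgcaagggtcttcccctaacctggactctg
H2-Ob (chr17:34238755-34238904, plus strand): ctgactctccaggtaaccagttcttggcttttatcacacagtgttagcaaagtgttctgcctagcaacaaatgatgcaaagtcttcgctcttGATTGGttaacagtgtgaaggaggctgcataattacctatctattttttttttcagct
H2-DMb2 (chr17:34145099-34145248, plus strand): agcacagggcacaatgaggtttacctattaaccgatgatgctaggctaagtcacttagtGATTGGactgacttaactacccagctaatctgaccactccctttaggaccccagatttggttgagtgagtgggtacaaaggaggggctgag
H2-Eb2 (chr17:34325525-34325674, plus strand): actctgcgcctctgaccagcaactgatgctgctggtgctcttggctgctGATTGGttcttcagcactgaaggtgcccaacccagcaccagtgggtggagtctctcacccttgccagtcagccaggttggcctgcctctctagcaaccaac
H2-Eb1 (chr17:34305717-34305866, plus strand): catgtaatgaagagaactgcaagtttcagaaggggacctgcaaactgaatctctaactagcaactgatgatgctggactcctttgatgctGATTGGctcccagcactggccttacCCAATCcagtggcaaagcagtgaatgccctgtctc
H2-Aa (chr17:34287824-34287973, minus strand): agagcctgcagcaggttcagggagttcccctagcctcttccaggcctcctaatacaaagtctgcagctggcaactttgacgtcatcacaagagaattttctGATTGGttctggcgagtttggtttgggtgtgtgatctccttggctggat
All 6 windows held the box, because the genes shown were taken from those that hold it. Over the 250 bases before the start, searched on both strands, GATTGG was present for 8 of the 11 class II genes with a promoter in the table (72.7%), against 21.4% of the 10701 genes tested that had one. A match is a description of the letters only.

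**Figure D3:**
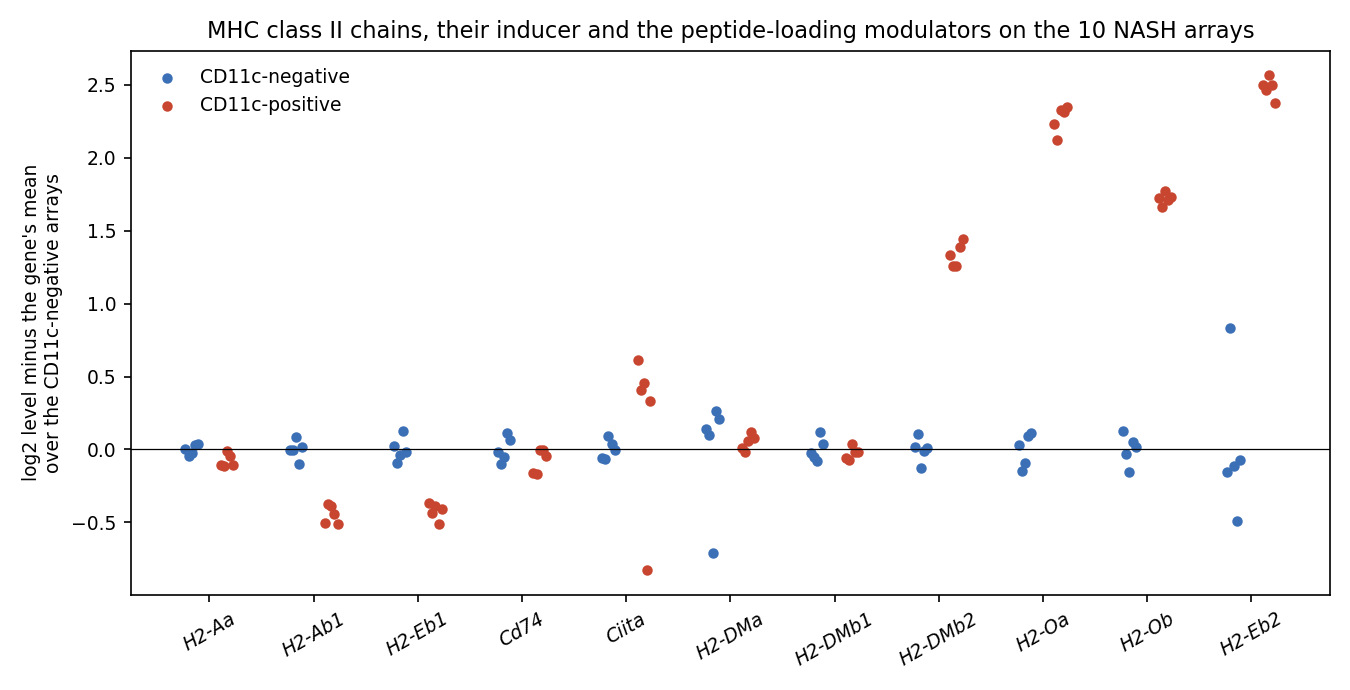
Log2 level of 11 class II genes on the 5 CD11c-negative and 5 CD11c-positive arrays (vertical axis), each minus the gene's own mean over the CD11c-negative arrays. H2-DMb2, H2-Oa, H2-Ob and H2-Eb2 are higher on every CD11c-positive array, H2-Ab1 and H2-Eb1 lower, and the low points of H2-DMa and Ciita are CD11c-negative replicate 3 and CD11c-positive replicate 4.

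Genes of natural killer cells and of T cells were also mostly higher. Of the 12 measured natural killer and innate lymphoid genes, 8 rose and none fell, and the median of 1.28 was 0.32 with normexp background correction, which compresses dim probes. Klrd1 (CD94), the partner of the NKG2 receptors and not on this list, was at -1.70 to -1.30 and at 1.51 to 1.74. Its difference was 3.096 (SE 0.071, adjusted p = 1.37e-13), and its wildtype mean was 0.040. Xcl1, the ligand of Xcr1, rose by 2.02 (SE 0.098), and Gzma and Gzmb, granule proteases of killer cells, by 1.31 (SE 0.040) and 1.26 (SE 0.043). Ncr1, a defining receptor of natural killer cells, was well above background on 1 of 5 CD11c-negative and 4 of 5 CD11c-positive arrays, with means of -4.86 and -2.89 (adjusted p = 7.20e-05). The pore protein Prf1 and the receptor Klrk1 did not pass (-0.094 and -0.082). The summed signal of the list was 14.2 to 15.3 in CD11c-negative, 18.9 to 19.8 in CD11c-positive and 20.9 to 21.5 in wildtype cells, so the NASH populations were both below the wildtype cells. Of 15 T cell genes 12 rose and 1 fell (median 0.63, or 0.60 with Bcl11b at its bound and 0.30 with normexp). Il7r, the interleukin-7 receptor, rose by 1.67 (SE 0.057), whereas Cd3e, a chain of the T cell receptor complex, did not pass (-0.26; with the slide as a block -0.20, adjusted p = 0.0176). Icos fell by 0.76 on the log2 scale. The summed T cell signal overlapped between the populations (23.5 to 28.5 and 25.9 to 29.3). Of 11 B cell and plasma cell genes 1 rose and 3 fell, among them Jchain by 1.03 on the log2 scale. The part of such cells in the dendritic cell and class II differences was not tested.

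Kupffer cell identity genes were lower in the CD11c-positive population. Of the 22 measured, 19 fell and 1 rose (Il18bp, 0.14), and after quantile normalization 18 fell and 2 rose. The median was -0.42 (-0.37 after quantile normalization) against 0.015 over all genes. Marco, a scavenger receptor for bacteria, was at 5.52, 5.54, 5.50, 5.65 and 5.69 on the CD11c-negative and at 3.74, 3.72, 3.76, 3.81 and 3.80 on the CD11c-positive arrays. Its groups did not overlap, and the fall was 3.52-fold; the wildtype mean was 7.72. Timd4, a receptor for phosphatidylserine on dying cells that marks long-lived resident macrophages, fell by 1.48 (SE 0.036) from a CD11c-negative mean of 2.39 that was itself below the wildtype 5.29. The haptoglobin-haemoglobin receptor Cd163 fell by 0.81, with means of 2.47 in wildtype, -2.41 in CD11c-negative and -3.22 in CD11c-positive cells. The complement component C6 fell by 0.91, and Clec4f, a lectin of Kupffer cells, by 0.79 (-0.66 after quantile normalization). Id3, a transcription regulator that Kupffer cells require, fell by 0.60 on the log2 scale. The summed signal of the list was 3598 to 3920 in wildtype, 2310 to 2530 in CD11c-negative and 1853 to 1997 in CD11c-positive cells, with no overlap between the 3 groups.

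Genes of lipid-associated macrophages, which gather in fatty tissue and digest lipid and debris, were mostly higher. Of the 24 measured, 18 rose and 2 fell (median 0.36), and after quantile normalization 23 rose and 0 fell. Atp6v0d2, a subunit of the lysosomal proton pump used in macrophage fusion, was at 1.37, 1.17, 1.25, 1.40 and 1.41 on the CD11c-negative and at 2.78, 2.75, 2.93, 2.87 and 2.88 on the CD11c-positive arrays. The difference of 1.52 (SE 0.048, adjusted p = 3.96e-12) had no overlap, and the wildtype mean was lower than both at -1.18. The elastase Mmp12 rose by 1.29 (SE 0.18), the collagenase Ctsk by 1.02 (SE 0.058), Gpnmb, a membrane protein of lipid-laden cells, by 0.98 (SE 0.028) and the fatty acid carrier Fabp5 by 0.65 (SE 0.026). Trem2, the lipid receptor that defines these cells, did not pass (-0.082), with means of 8.25 and 8.17 against a wildtype mean of 5.62. It passed as higher after quantile normalization (0.099, adjusted p = 0.00592) and as lower with the slide as a block (-0.099, adjusted p = 0.00294). Apoe, the apolipoprotein that carries lipid out of macrophages, fell by 0.43 on the log2 scale, a value that quantile normalization cannot check because Apoe held the same rank on all arrays. The summed signal of the list overlapped between the populations (4044 to 4345 and 4098 to 4322) and was 2306 to 2437 in wildtype cells. Of 16 monocyte genes 8 rose and 6 fell; S100a4 rose by 0.86 (SE 0.024) and Fn1, fibronectin, by 0.82 (SE 0.056), and Chil3, a chitinase-like protein of monocytes and granulocytes, fell by 1.43 (SE 0.040).

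Neutrophil granule genes were lower in the CD11c-positive population with 1 exception. These proteins are made by granulocyte precursors in the marrow and are stored in granules that neutrophils release on bacteria. Of 20 measured genes 19 fell, 17 of them at least 2-fold (1.19% of all genes tested were), none rose, and the median difference was -1.82. Mpo, the myeloperoxidase of azurophil granules, was at 3.96, 3.90, 3.92, 4.02 and 4.03 on the CD11c-negative and at 1.70, 1.65, 1.71, 1.72 and 1.75 on the CD11c-positive arrays. The 4.78-fold fall had no overlap (adjusted p = 6.83e-15), yet both populations were above the wildtype mean of -1.62. Wfdc21, a whey acidic protein family member, fell 5.23-fold, the granule proteases Ctsg and Prtn3 4.63-fold and 4.12-fold, and the antimicrobial proteins Camp, Ngp and Ltf (lactoferrin) by 1.95, 1.91 and 1.90 on the log2 scale. S100a8, a calcium-binding alarmin, was at 8.58 to 8.81 on CD11c-negative, 6.87 to 7.02 on CD11c-positive and 6.02 to 6.09 on wildtype arrays. The member that did not pass was Csf3r, the receptor for the granulocyte growth factor, at 0.0089. The summed signal of the list was 1773 to 1939 in CD11c-negative and 716 to 749 in CD11c-positive cells, against 444 to 465 in wildtype cells. Other genes known from granulocyte precursors were among the 10 largest falls: Ms4a3, at 0.68 to 0.89 and -1.70 to -1.39 (adjusted p = 0.00301, with a wildtype SD of 1.64), and the protease inhibitors of the stefin A family Stfa1, Stfa3 and Cstdc5, at -2.23, -2.13 and -2.14. Stefin A genes are near-identical copies, so their probes may not tell them apart.

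The promoters of Ngp and Ltf are shown as examples of granule genes with an element that binds C/EBP factors, which direct granulocyte genes. The lines give the 150 bases before the RefSeq start on GRCm38.p6, and capitals mark TTGCNNAA or its reverse.
Ngp (chr9:110419658-110419807, plus strand): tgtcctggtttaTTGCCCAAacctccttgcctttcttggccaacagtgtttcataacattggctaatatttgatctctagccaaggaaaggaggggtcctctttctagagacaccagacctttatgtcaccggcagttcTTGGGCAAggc
Ltf (chr9:111019142-111019291, plus strand): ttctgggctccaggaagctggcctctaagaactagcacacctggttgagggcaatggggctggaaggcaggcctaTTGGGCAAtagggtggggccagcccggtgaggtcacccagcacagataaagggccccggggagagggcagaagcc
Over the 250 bases before the start, on both strands, TTGCNNAA was present for 6 of the 17 neutrophil genes with a promoter in the table (35.3%), against 9.85% of the 10701 genes tested that had one. The CCAAT box of the class II promoters was present for 1 of the 17 (5.88%).

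**Figure D4:**
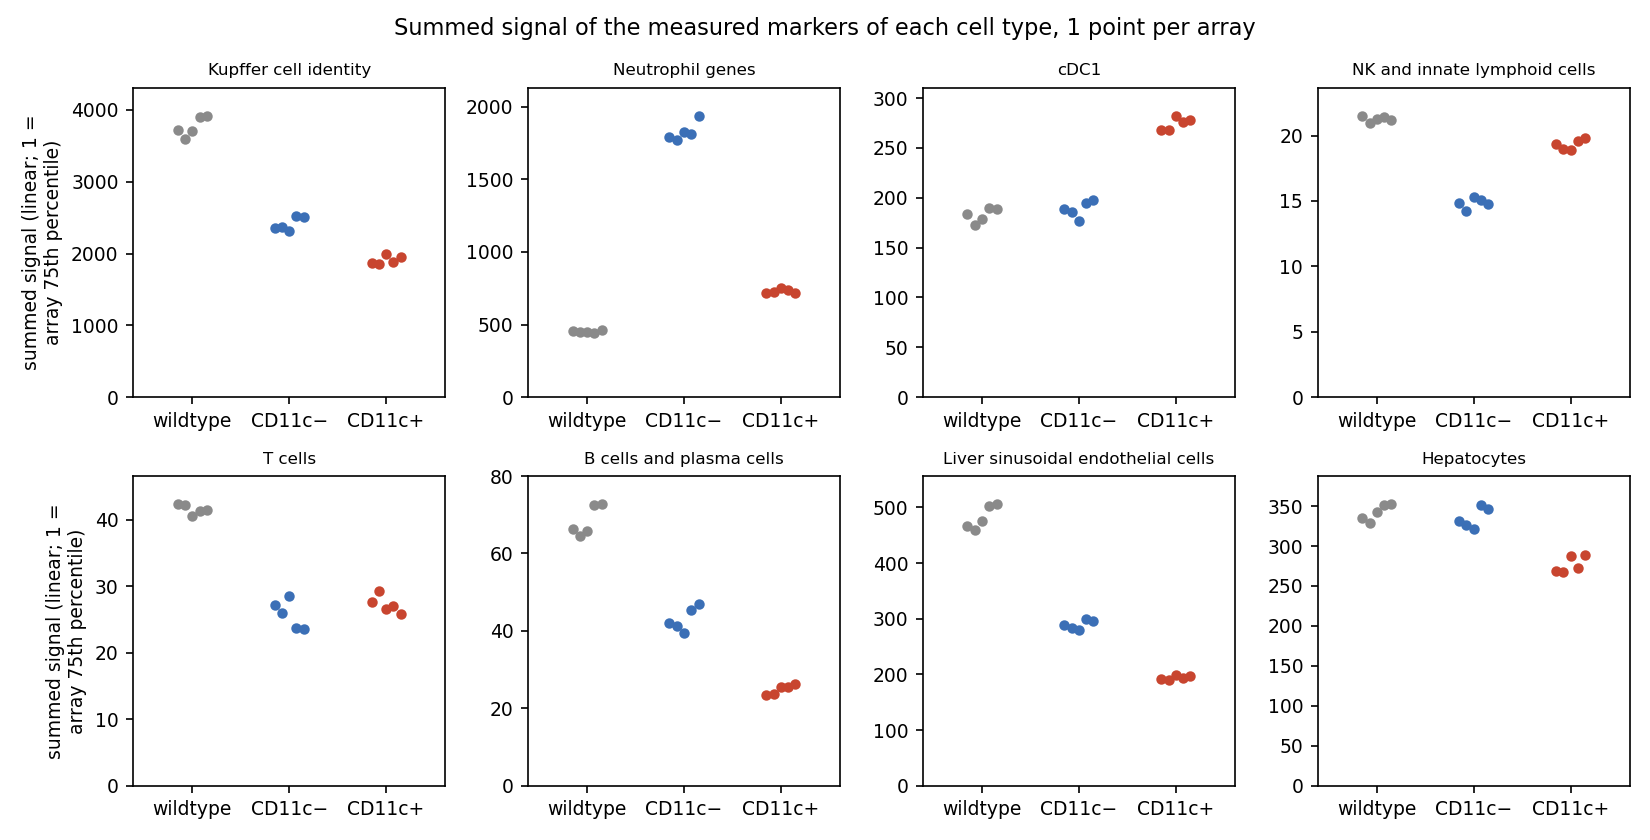
Summed linear signal of the measured genes of 8 cell type lists on each of the 15 arrays (vertical axis from 0, in units of the array's 75th percentile), by group. The neutrophil sum is highest in the 5 CD11c-negative NASH arrays, the cDC1 sum in the 5 CD11c-positive ones, and the T cell sums of the NASH populations overlap.

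Genes of liver cells that a macrophage gate can carry along were lower in the CD11c-positive population too. Of 15 endothelial genes 12 fell and none rose (median -0.52); Clec4g, a lectin of sinusoidal endothelium, fell by 1.06 and Egfl7 by 0.76. Of 15 hepatocyte genes 13 fell and none rose (median -0.31), with Alb at -0.10 among those that did not pass (with the slide as a block -0.12, adjusted p = 0.00142). Summed hepatocyte signal was 321 to 351 in CD11c-negative, 268 to 289 in CD11c-positive and 328 to 352 in wildtype cells, and summed endothelial signal was 279 to 300.4, 189 to 199 and 460.2 to 506. The hepatocyte sum is set by its brightest members and does not track each gene. Between wildtype and CD11c-negative cells Alb went from 4.50 to 3.31, Serpina1a from 5.81 to 4.45 and Mup3 from 2.78 to 1.57. Of 11 stellate cell and fibroblast genes 2 rose and 6 fell, among them Dcn, the matrix proteoglycan decorin, by 0.85 on the log2 scale. Of 6 red cell and platelet genes 5 fell; the beta-globin Hbb-bt, named among the 10 largest falls, was at 0.63 to 0.88 and at -1.58 to -1.29. Of 9 eosinophil, basophil and mast cell genes 5 fell and 1 rose. That 1 was Siglecf, a sialic acid receptor also of alveolar macrophages, which rose by 1.60 (SE 0.048), while Prg2, the major basic protein of eosinophil granules, fell 6.60-fold and the defining marker Epx was not measured. Prg2 was not among the genes measured without overlap on all 10 NASH arrays, so its fold is not ranked with the 10 largest falls. Summed stellate cell signal overlapped between the populations, and summed eosinophil, basophil and mast cell signal was higher in CD11c-positive cells (8.74 to 9.85 against 4.90 to 5.90). That sum mostly reflects Siglecf, the only member that rose, with mean log2 levels of 1.12 and 2.72. The hepatocyte and endothelial sums were lower together with the Kupffer cell and neutrophil genes, and their part in those falls was not tested.

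More chemokines fell than rose. Of 21 measured CC and CXC chemokines 12 fell and 5 rose (median -0.37, -0.30 after quantile normalization). Cxcl13, which draws B cells, was at 3.93, 3.95, 3.92, 3.98 and 4.05 on the CD11c-negative and at 1.28, 1.24, 1.26, 1.25 and 1.31 on the CD11c-positive arrays, and the wildtype arrays were higher than both (5.51 to 5.57). The 6.50-fold fall was the largest among the genes well above background on all 10 NASH arrays. The ligands that draw monocytes through Ccr2 all fell: Ccl2 by 1.08, Ccl7 by 1.19 and Ccl12 by 1.13 on the log2 scale, each with a standard error of 0.045 or less. Ccl2 ranged over 4.84 to 4.97 on CD11c-negative and 3.76 to 3.87 on CD11c-positive arrays, the latter below the wildtype 4.05 to 4.13. Ccl24, which draws eosinophils, fell by 1.501. Of 14 measured cytokines 10 fell and 1 rose (Tgfb1, 0.19); Il6 fell 2.41-fold and Il10 1.76-fold, and Tnf did not pass (-0.097). Of 18 chemokine receptors 8 rose and 7 fell, from Xcr1 and Ccr7 above to Cxcr2, the neutrophil receptor, at -1.19.

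Of 20 Toll-like receptor and inflammasome genes 5 rose and 6 fell, shares near those of all genes tested (29.9% and 23.2%). Tlr11, an endosomal receptor for protozoan profilin, was at -3.06 to -2.88 and at -0.31 to -0.15, a difference of 2.74 (SE 0.051, adjusted p = 1.60e-14); Tlr3, a receptor for viral RNA, rose by 0.72 (SE 0.036), and Cd14, the coreceptor for endotoxin, fell by 0.47. Of 22 scavenger, lectin and phagocytic receptors 5 rose and 11 fell. Cd209f, a relative of Cd209a, moved against it, from -0.69 to -2.63, and its wildtype mean was 3.02. Of 17 complement genes 13 fell and 3 rose (median -0.30, -0.11 after quantile normalization). C4b fell 2.11-fold, and the genes that rose were the anaphylatoxin receptors C5ar1, C3ar1 and C5ar2 (0.31, 0.21 and 0.15). Of 15 genes of iron and haem recycling 7 fell and 2 rose. Ftl1, the ferritin light chain, stood at 9.66 and 9.22, a difference of -0.44 (-0.14 after quantile normalization). Of 23 interferon-response genes 12 fell and 2 rose, none by 2-fold; Cxcl10 fell by 0.62 on the log2 scale.

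Cholesterol synthesis and cell division were functions in which no member fell. Of 23 genes of cholesterol biosynthesis and its control by sterol-sensing factors, 21 rose and none fell, by a median of 0.33 (slide medians 0.31 and 0.34). Hmgcs1, the synthase at the entry of the pathway, rose by 0.65 (SE 0.060). It was at 2.88, 2.83, 2.77, 2.58 and 2.92 on CD11c-negative and at 3.44, 3.39, 3.50, 3.44 and 3.46 on CD11c-positive arrays. The CCAAT box GATTGG was present before 12 of the 16 of these genes with a promoter in the table (75%, against 21.4% of genes tested), and the sterol regulatory element TCACNCCAC before 1 (6.25%, against 1.22%). Of 22 genes of lipid uptake and storage 11 rose and 7 fell. Mogat2, an enzyme that builds diglycerides, fell by 1.99 and G0s2, an inhibitor of fat breakdown, by 1.36. Of 16 genes of the liver X receptor and cholesterol efflux 9 rose and 4 fell; the desaturase Scd2 rose by 0.68 (SE 0.036), and Ch25h, which makes an oxysterol, fell by 0.63.

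Of 27 genes of DNA replication and mitosis 24 rose and none fell, by a median of 0.63 (slide medians 0.60 and 0.57). Top2a, the topoisomerase of dividing cells, was at 0.71, 0.73, 0.63, 0.78 and 0.73 on the CD11c-negative and at 1.62, 1.60, 1.78, 1.73 and 1.64 on the CD11c-positive arrays. The groups did not overlap, and the wildtype mean of 0.47 was below both. The mitotic motor Kif11 rose by 0.96 (SE 0.038) and the proliferation marker Mki67 by 0.86 (SE 0.045). None of the 24 reached 2-fold. The summed signal was 209 to 225 in CD11c-negative, 283 to 296 in CD11c-positive and 163 to 172 in wildtype cells. Which cell type of the sorted population carried these transcripts cannot be read from bulk arrays.

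**Figure D5:**
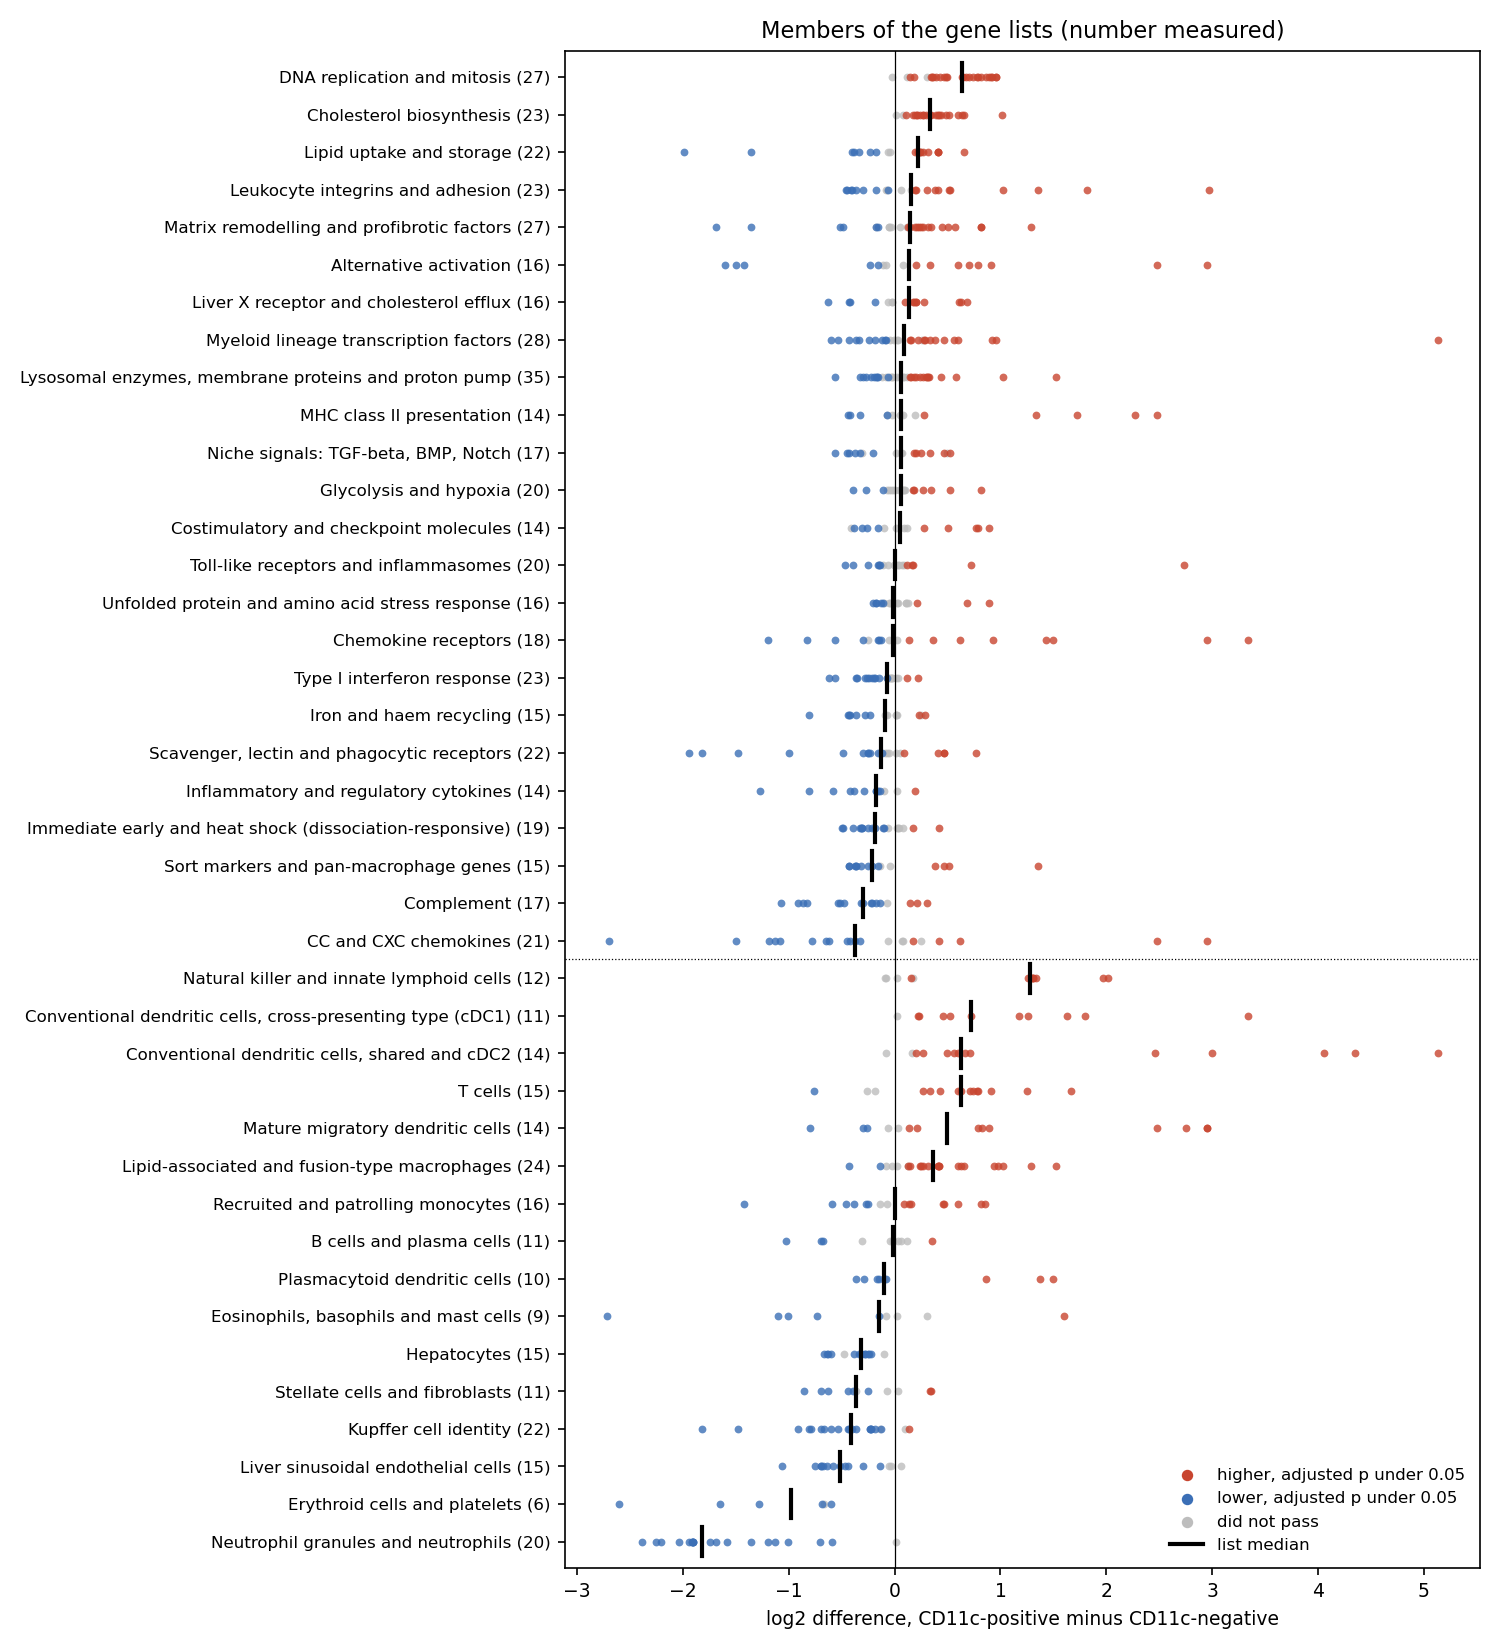
Log2 difference, CD11c-positive minus CD11c-negative, of each measured member (points) of the 40 lists with at least 4 measured genes, functions above the dotted line and cell types below it, with the list median as a bar. Neutrophil genes lie lowest, with all but 1 below 0 and passed, and the medians of the natural killer, cDC1, cDC2, DNA replication and cholesterol lists lie above 0.

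The other function lists had members on both sides, several in shares near the 29.9% higher and 23.2% lower of all genes tested. Of 23 integrin and adhesion genes 11 rose and 8 fell. Jaml, an adhesion receptor of leukocytes, was at -0.12, -0.083, -0.18, 0.0084 and 0.028 on the CD11c-negative and at 2.83, 2.73, 2.95, 3.00 and 2.99 on the CD11c-positive arrays, a difference of 2.97 (SE 0.066, adjusted p = 1.05e-13). Itgad, whose product CD11d is the neighbour and relative of CD11c, was well above background on 2 CD11c-negative and all 5 CD11c-positive arrays (means -3.73 and -1.91), while Itgam (CD11b) fell by 0.37. Of 35 lysosomal genes 14 rose and 10 fell, and after quantile normalization 24 rose and 5 fell, the largest fall being that of the protease Ctsf (-0.56). Of 27 genes of matrix remodelling 15 rose and 6 fell, with Vegfa at 0.82 and, on the granule side, Mmp9 at -1.68 and Mmp8 at -1.35. Of 28 transcription factors of the myeloid lineage 13 rose and 10 fell; beyond Mycl the largest rise was that of Runx3, a factor of killer cells and dendritic cells, at 0.95 (SE 0.053) for the brighter of 2 probes and 0.61 for their mean. Of 16 alternative activation genes 8 rose and 5 fell. Arg1 rose by 0.91 (SE 0.064), and the chitinase-like Chil4 fell by 1.61 on the log2 scale. Of 16 stress response genes 3 rose, all of amino acid synthesis (Asns 0.89, Psat1 0.69 and Phgdh 0.21), and 5 fell. Of 20 glycolysis and hypoxia genes 6 rose and 3 fell, and after quantile normalization 11 rose and 2 fell. Of 17 niche signal genes 6 rose and 6 fell, with Notch2 at 0.52 and the Notch ligand Dll4 at -0.57. Of 19 immediate early and heat shock genes, which respond to tissue digestion, 12 fell and 2 rose; Nfkbia was at -0.50 (-0.36 after quantile normalization) and Fosb at 0.42.

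Several of the largest differences were in genes on none of the lists. Gpr141b, an orphan receptor, was not well above background on any CD11c-negative array and stood at -0.0093 to 0.049 on the CD11c-positive arrays, at least 14.8-fold higher (measured means -4.88 and 0.019, adjusted p = 3.63e-12). By the same measure Htr7, a serotonin receptor, was at least 9.33-fold, Mreg, a carrier of organelle transport, at least 7.87-fold, Ffar4, a receptor for long-chain fatty acids, at least 7.45-fold and Ttc39a at least 6.83-fold higher. Their mean CD11c-positive levels ran from -1.09 to -0.64. Ap1s3, a subunit of a clathrin adaptor, rose by 2.73 (SE 0.051) and F7, coagulation factor VII, by 2.60 (SE 0.081). In the other direction 3 genes were measurable only in CD11c-negative cells: Msln, mesothelin, at least 2.59-fold higher there, Ankrd7 at least 2.87-fold and Shisal2a at least 1.54-fold. The last 2 rest on variable arrays, with Ankrd7 overlapping between the groups and losing its call without CD11c-negative replicate 3 (adjusted p = 0.0576). Ankrd22 fell by 2.11 on the log2 scale, with arrays at -0.22 to -0.092 and at -2.34 to -2.10. Of the 222 genes at least 2-fold higher 40 were on a list, as were 40 of the 159 at least 2-fold lower.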

How the data were processed

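RNA of 15 samples of sorted mouse liver macrophages was hybridised to Agilent one-colour (Cy3) arrays on 2 slides. Per the file headers, the deposited scanner files give spot intensity as a processed signal, detrended after background subtraction, and other values (flags); Agilent Feature Extraction 10.7.3.1 was used per the submitters' processing notes. The deposited value table is on the log2 scale, relative to the array's 75th percentile and the wildtype median (median absolute difference from the values used here 0.00146), and served as an alternative.

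Control spots (3671 of 62976) and 113 to 190 outlier spots per array were dropped. None was saturated; 45.8% to 58.0% were well above background. Through RefSeq accessions (GRCm38.p6) 26582 of 55681 probes were named. A probe stayed if some group had it well above background on 4 or more of its 5 arrays, and the brightest stood for its gene, leaving 13390 genes (12 lacked a value on some array). Precision is limited by how many arrays there are. The populations were compared with limma 3.58.1 (R 4.3.3) from group means over 15 arrays, 2-sided, with no covariates; the procedure was tested on simulated data. A fold given as "at least" sets the measured group against the lowest signal well above background (against the dim probe's value if that is larger) and holds for this processing only.

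Members and the 41 gene lists (622 of 665 genes measured) were chosen with earlier results of these data known. Named were the 10 largest rises and falls measured without overlap on all 10 NASH arrays, the 6 largest bounded rises and the 3 bounded falls, the 2 largest members of each list and the largest against them, and the sorting and deleted genes, without predicted genes, numbered clones, microRNAs and receptor segments. A few genes chosen this way are not reported here. Further genes, symbol families and promoters were chosen after their values were seen; 8 short motifs were searched. Alternatives were normexp (offset 50, median signals), quantile normalization, other filters, slide or replicate number as blocks, single slides, the 10 NASH arrays only, probe means, a trended prior, array weights, deposited values, and leaving out each array.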

Additional observations from a re-analysis of the deposited data

Results flagged for a closer look

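In 18 of 326 groups of 5 arrays (163 named genes in the 2 NASH populations), the gap between an array and its nearest neighbour took up so large a share of the group's range that Dixon's criterion set the array apart. Chance sets apart about 5% of groups. Replicate 2 of the CD11c-negative arrays was apart for Ccl17 (-1.56 against -2.98 to -2.68, share 0.788) and Olr1 (-3.07 against -2.54 to -2.41, share 0.807). Replicate 3 of the CD11c-negative arrays was apart for H2-DMa (5.35 against 6.16 to 6.32, share 0.831), Cd86 (4.85 against 4.93 to 4.95, share 0.825), Mup3 (1.45 against 1.58 to 1.62, share 0.794), Colec11 (-0.047 against 0.083 to 0.11, share 0.832), Shisal2a (-1.76 against -4.13 to -3.84, share 0.877) and Mmp8 (2.81 against 2.90 to 2.93, share 0.794). Replicate 5 of the CD11c-negative arrays was apart for Msln (-2.56 against -2.94 to -2.85, share 0.768). Replicate 2 of the CD11c-positive arrays was apart for Pdcd1lg2 (-0.21 against -0.89 to -0.79, share 0.844), Ch25h (-0.16 against -0.57 to -0.52, share 0.870) and Stfa3 (-2.45 against -3.02 to -2.91, share 0.817). Replicate 3 of the CD11c-positive arrays was apart for Mup3 (1.05 against 0.84 to 0.91, share 0.711) and Stfa1 (-1.05 against -1.27 to -1.24, share 0.843). Replicate 4 of the CD11c-positive arrays was apart for Ciita (1.27 against 2.43 to 2.71, share 0.808). Replicate 5 of the CD11c-positive arrays was apart for Siglecf (2.83 against 2.66 to 2.71, share 0.715), Cftr (-3.60 against -3.11 to -2.97, share 0.775) and Cd209f (-2.90 against -2.62 to -2.53, share 0.757). In all, 6 of these 18 groups had CD11c-negative replicate 3 as the array apart. Of the 10 largest falls, Stfa1 and Stfa3 were among them, and of the bounded genes Msln and Shisal2a.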

How the results depend on the processing

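The counts of genes higher and lower (4008 and 3108) were 3659 to 4222 and 2881 to 3229 with any array left out, and those at least 2-fold higher and lower (222 and 159) were 216 to 232 and 150 to 163. The 2-fold counts fell to 83 and 75 with normexp, whose added offset compresses dim probes, and to 110 and 98 with the filter on all 10 NASH arrays, which leaves out genes unmeasured in a population. They were 243 and 132 with quantile normalization, 204 and 154 on slide 1 and 219 and 154 on slide 2. Correlations of the deviations of same-numbered arrays were -0.20 to 0.29, with 3 of 5 best with their own number. The lowest was that of replicate 3, whose arrays lay on different slides. Same-slide arrays had a mean of 0.20 and others -0.18, so whether the numbers mark pairs was not settled. With the replicate block 4383 and 3565 genes passed (222 and 159 at 2-fold), and with replicate block and slide 4157 and 3846; Egln3 lost its call (-0.40) and the values not called of Trem2, Cd3e and Alb passed (-0.082, -0.26 and -0.10). Over named genes and settings 4784 differences kept direction and side of the threshold, 43 lost and 22 gained a call, and 15 changed sign. The sign changed with quantile normalization for H2-Eb1 (0.014), H2-Aa (0.10), Cd74 (0.25) and Trem2 (0.099), and all of these but H2-Eb1 passed as higher. For Apoe that method gives 0.00 by construction, since it held the same rank on all arrays. The sign changed with normexp for Cd209e (-0.079). On slide 2 alone it changed for H2-DMa (-0.15), Ciita (-0.029), Csf3r (-0.00043), Batf3 (-0.0057), the class II, costimulatory, monocyte, Toll-like receptor and glycolysis medians (-0.053, -0.0026, -0.040, -0.044 and -0.0014) and the transcription factor median (-0.0038). With replicate block and slide it changed for H2-DMa (-0.045) and Batf3 (-0.0095), without CD11c-negative replicate 3 for H2-DMa and Batf3 (-0.13 to 0.12 and -0.00037 to 0.041 over all arrays left out in turn), with array weights for Csf3r (-0.0038), and with the filter on all 10 NASH arrays for the eosinophil median (0.31). In all, 11 list medians, none larger than 0.15 in size, had the other sign in some setting. With the slide as a block 4402 and 3971 genes passed, and Cd74, Trem2, Cd3e and Alb gained a call. Apart from the scaling of bright genes and from settings that use fewer arrays or genes, the cause was not tested. H2-Aa lost its call with any of 7 arrays left out (wildtype replicate 3, CD11c-negative replicates 1, 4 and 5 and CD11c-positive replicates 1, 2 and 5); Bcl11b and Cr2 lost theirs with normexp (0.068 and 0.12), Ms4a3 on slide 1 (-2.25) and Olr1 without CD11c-negative replicate 2 (0.65).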

Other observations

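Genes that share a symbol root, grouped after their values were seen, gave further contrasts. In the Cd209 family of lectins, Cd209a was higher in CD11c-positive cells (3.00) and Cd209f lower (-1.94), both well above background on all 10 NASH arrays and of the same direction under all settings run. Cd209c was at least 1.41-fold higher, being well above background on no CD11c-negative array (measured means -5.97 and -3.37, adjusted p = 1.40e-08). Cd209e and Cd209b were well above background on at most 3 arrays of either population and are given no difference. Of 23 killer cell lectin-like receptors 17 rose and 3 fell; the 3, Klra9, Klra2 and Klra1 (-0.27, -0.60 and -0.61), included Klra2, at 4.42 in CD11c-negative and 3.82 in CD11c-positive cells. All 7 stefin A genes, all 5 haemoglobin chains and all 4 formyl peptide receptors fell at least 2-fold, with medians of -1.93, -2.04 and -1.12. Members of these families share sequence, so their probes may share signal. Fpr1, a receptor for bacterial peptides, was at 6.13 in wildtype, 5.50 in CD11c-negative and 4.33 in CD11c-positive cells.

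Of 5 enzymes of the kynurenine pathway of tryptophan breakdown, Kmo, Kynu and Haao rose (2.46, 1.05 and 0.28), Qprt fell (-0.44) and Afmid did not pass (0.040). Of 6 genes of retinoic acid synthesis and breakdown only Aldh1a2, the synthesizing enzyme of dendritic cells in gut-draining lymph nodes, rose. It was at -3.29, -3.53, -3.44, -3.78 and -3.72 on the CD11c-negative and at -0.58, -0.62, -0.50, -0.59 and -0.37 on the CD11c-positive arrays, with a wildtype mean of -2.21. Its relative Aldh1a1 fell by 0.36 and the degrading enzyme Cyp26b1 by 0.20 on the log2 scale.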
